A study of Mus musculus with 13 samples.

Results

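The nerve cells and glia of the bowel wall were followed through 8 genes: Sox10, S100b and Gfap for enteric glia, Uchl1 and Elavl4 for neurons, Ret for the receptor of the lineage, and Vip and Nos1 for inhibitory transmission. They were chosen by name, as every probe whose gene name in the scanner files was one of these symbols. This gave 11 of the 55681 probes on the array and 8 of 36163 named genes or transcripts, and all 8 genes passed the filter on dim probes. RNA of colorectal tissue from mice was measured on 13 Agilent arrays, 1 per sample, read in 1 colour. All 4 groups came from mice of the genotype CDX2P-NLS Cre;Apc+/loxP, known as CPC-Apc. In these mice a Cre recombinase under a CDX2 promoter removes 1 Apc allele, and the cells in which it acted were not read here. The microRNA groups were normal tissue (2 arrays) and tumors (2 arrays) of mice given miR-200c, miR-302 a to d and both strands of miR-369, at 25 µg of each. The control groups were normal tissue (2 arrays) and tumors (7 arrays) of CPC-Apc mice, taken here to be those given the negative control miRNA, on the basis of their short descriptions and the shared protocol. Per that protocol, both treatments began at an age of 8 weeks and comprised 24 tail-vein injections, 3 per week, in carbonate apatite particles. The labels tie no sample to a mouse, so normal tissue and tumors may share animals, and several tumors may come from 1 mouse. The p-values below therefore measure the spread between these samples.

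The enteric nervous system is a network of ganglia and fibres that lies mostly between and beneath the muscle layers of the bowel wall and drives motility, secretion and blood flow. Its neurons and glia arise from neural crest cells that migrate along the gut. Sox10, a transcription factor, is needed in these progenitors and is then kept in glia, and Ret, the signalling receptor for GDNF family ligands, is needed for them to colonise the gut. VIP and nitric oxide, the product of neuronal nitric oxide synthase (Nos1), are the main signals by which inhibitory motor neurons relax the muscle.

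The measured part of 2 transcripts can be shown directly, because the probes of Uchl1 and Nos1 lie in coding sequence. Both genes read lower in tumors, Nos1 near background. Both are printed 5′ to 3′ as the files give them, with mm9 coordinates. The Uchl1 probe covers 1092 bases of genome with 60 bases of transcript, so it joins exons, at chr5:67073886-67074977 on the plus strand, and the Nos1 probe lies at chr5:118402831-118402890, also on the plus strand.
Uchl1 probe: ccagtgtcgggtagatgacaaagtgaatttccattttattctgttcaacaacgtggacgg
Nos1 probe: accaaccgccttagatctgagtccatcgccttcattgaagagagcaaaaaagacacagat

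The promoters of S100b and Vip are shown because these 2 genes had the widest range between arrays and varied together, as described below. They are the 250 bases before the RefSeq gene start on GRCm38.p6, both on the plus strand of chromosome 10: chr10:76253586-76253835 for S100b and chr10:5638968-5639217 for Vip. Capitals mark matches to CCAAT on either strand in S100b, and to TGACGTC and TATAAA in Vip.
S100b promoter: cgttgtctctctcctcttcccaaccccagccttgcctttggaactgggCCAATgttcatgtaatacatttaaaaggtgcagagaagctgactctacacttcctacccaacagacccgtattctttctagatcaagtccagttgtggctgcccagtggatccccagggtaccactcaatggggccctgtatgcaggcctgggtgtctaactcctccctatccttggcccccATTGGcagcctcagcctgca
Vip promoter: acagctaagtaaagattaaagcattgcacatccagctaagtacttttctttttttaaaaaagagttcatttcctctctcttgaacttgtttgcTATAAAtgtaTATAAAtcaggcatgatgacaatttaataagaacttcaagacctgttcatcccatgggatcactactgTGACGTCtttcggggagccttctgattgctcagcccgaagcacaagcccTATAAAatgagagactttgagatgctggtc
TGACGTC, the core of the cyclic AMP response element, begins 79 bases before the Vip start, and the TATAAA nearest to the start begins 30 bases before it. S100b has no TGACGTC in this window, and its CCAAT matches begin 202 bases before the start on the plus strand and 20 bases before it on the minus strand. Both strands were searched: of 32851 promoters of the same length, 2.78% hold TGACGTC, 12.4% hold TATAAA and 33.8% hold CCAAT. The shorter TGACG, the first letters of the same element, is in 17.8% of them and in 1 window each of Vip and Nos1 and 3 of Elavl4. Of the Elavl4 windows, chr4:110287528-110287777 and chr4:110287512-110287761 overlap and hold the same site. ACAAAG, a core sequence bound by SOX proteins, is in 16.5% of all promoters and in no window of the 6 members found in the table.

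Levels are log2 differences from the 75th percentile of each array, so 0 is the brightness that 25% of spots exceed, and each unit below it is a further halving. That percentile was 213.9 to 319.6 intensity units in normal tissue (4 arrays) and 414.8 to 739.6 in tumors (9 arrays), so tumor arrays were the brighter ones. A total of 52.1% to 58.2% of spots were well above background on each array. The arrays lay on 2 slides: 8 on slide 1 (control tumors 1, 2, 4, 5, 6 and 7, and replicate 2 of both microRNA groups) and 5 on slide 2 (both control normals, control tumor 3, and replicate 1 of both microRNA groups). Genes of other tissues set the 2 control normal arrays apart: the summed level of 7 squamous epithelium genes was 8.93 to 31.7 times the 75th percentile there and 1.40 to 4.87 times on the other 11 arrays. For 8 skeletal muscle genes the sum was 10.1 to 16.5 times there and 2.30 to 5.21 times elsewhere, and for 7 lymphocyte genes 14.0 to 26.2 and 1.66 to 9.31 times. These genes' part in the results was not tested, and results that rest on the control normals are given without each of them.

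Over both groups of mice, 5 of the 8 genes fell in tumors and none rose: Sox10, Uchl1, S100b, Nos1 and, by a small margin, Elavl4. Nos1 was well above background on 1 of the 9 tumor arrays and passed the filter on dim probes mostly through normal tissue. Neither its call nor the size of its difference is settled, though it stays in these counts. All 8 fitted differences, tumor minus normal tissue, were below 0 at this scaling, and Gfap, Ret and Elavl4 turned positive on the deposited intensities with no scaling between arrays (0.51, 0.16 and 0.50). Without scaling the median over all genes moved from -0.11 to 0.89, so these 3 values stayed below that median. The median of the 8 differences was -1.52, against -0.11 for all 25395 genes tested, whose 5th percentile was -1.73. Of all genes, 19.7% fell and 11.7% rose (limma, Benjamini-Hochberg adjusted p under 0.05, n = 9 tumors and 4 normal arrays). Of the called genes 37.3% rose at this scaling, against 50.8% with median scaling, 51.7% with quantile normalization and 95.5% with no scaling. Groups did not overlap for 3 of the 8 genes, all lower in tumors, against 10.5% of all genes. In RNA of whole tissue, fewer cells of a type and less RNA per cell cannot be told apart.

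**Figure D1:**
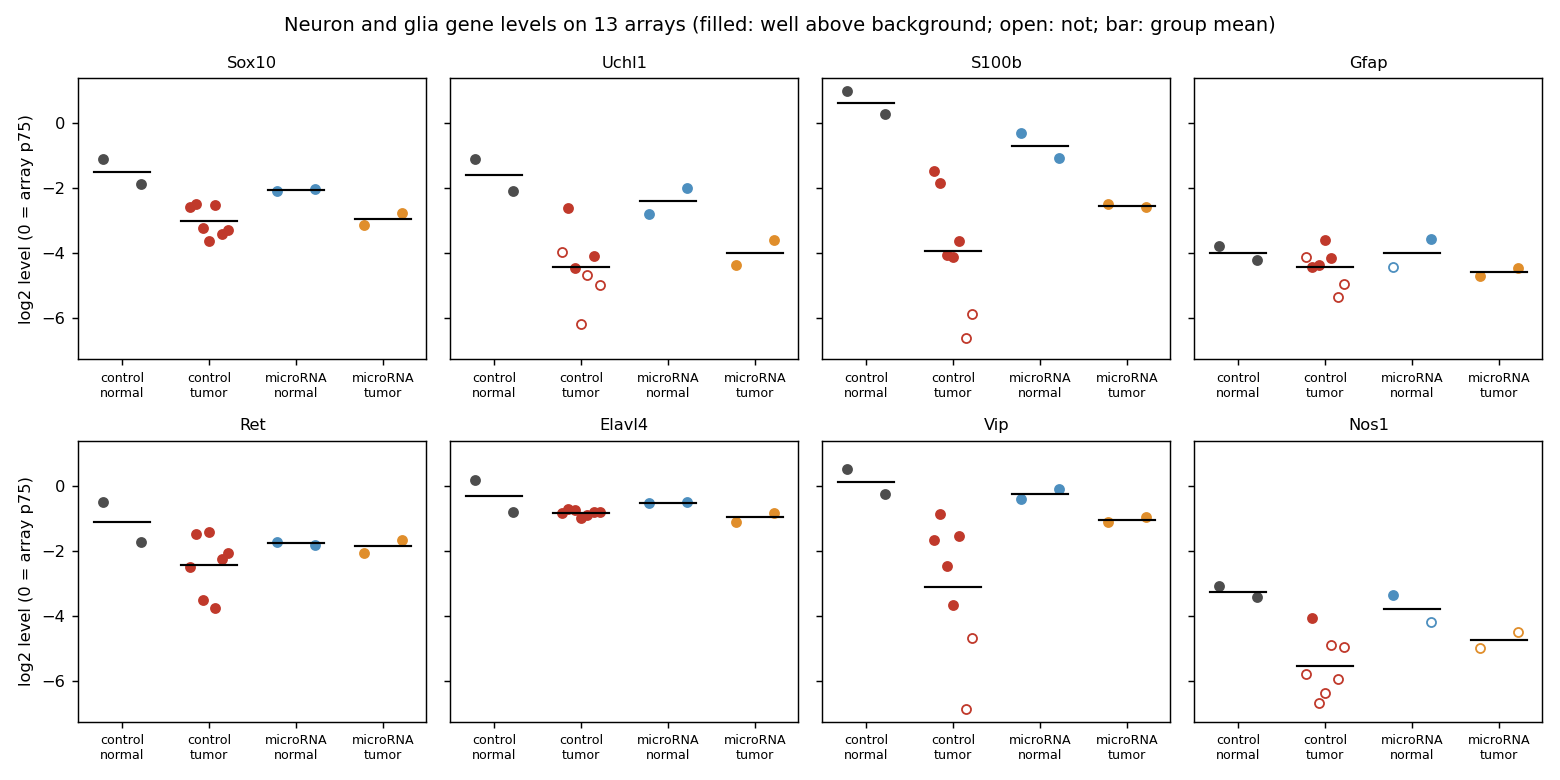
Level of each of the 8 genes on each of the 13 arrays, by group; the vertical axis is the log2 level, with 0 at the array's 75th percentile (p75), and bars are group means. Filled points are well above background and open points are not. S100b and Vip spread most among the 7 control tumors, from -6.62 to -1.49 and from -6.86 to -0.88, while Elavl4 stayed within -0.99 to -0.73 there.

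Among glial genes, Sox10 was read by a probe at chr15:78985518-78985577 (mm9, minus strand) and was well above background on all 13 arrays. Its log2 level was -1.11 and -1.88 in control normal tissue, and -2.11 and -2.05 in normal tissue of microRNA mice. In tumors it was -3.14 and -2.78 in microRNA mice and ran from -3.63 through a median of -3.23 to -2.50 in the 7 control tumors. Every tumor lay below every normal array. The fall was 2.42-fold (log2 difference -1.27, SE 0.27, limma adjusted p = 0.00553).

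S100b encodes a calcium-binding protein that is abundant in glia (probe at chr10:75723783-75723842, mm9, plus strand). Its log2 level was 0.97 and 0.26 in control normal tissue, and -0.31 and -1.09 in normal tissue of microRNA mice. It was -2.48 and -2.60 in microRNA tumors. In control tumors it ran from -6.62 through a median of -4.06 to -1.49, and control tumors 6 and 7, the lowest, were not well above background. All tumors again lay below all normal arrays, and S100b had the largest fitted difference of the 8 genes. It fell 11.3-fold (log2 difference -3.50, SE 0.91, adjusted p = 0.0138).

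Gfap encodes the intermediate filament protein that is used as a mark of a subset of enteric glia. The probe that stands for the gene (A_55_P2157250, chr11:102748864-102748923, mm9, minus strand) was dim, well above background on 9 of 13 arrays. Its log2 level was -3.79 and -4.21 in control normal tissue and -4.42 and -3.58 in normal tissue of microRNA mice. It was -4.70 and -4.46 in microRNA tumors and ran from -5.36 through -4.38 to -3.59 in control tumors, so tumors and normal tissue overlapped. The difference of -0.49 (SE 0.30, adjusted p = 0.224, 95% interval -1.13 to 0.16) did not pass.

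Gfap gave different answers by probe. A_52_P52303, at chr11:102751813-102751872, was well above background only on the 2 control normal arrays, at -2.78 and -3.61. It read -4.87 and -4.81 in normal tissue of microRNA mice, and -6.92 to -4.99 in the 9 tumors. It entered the test only through the arrays where it was high and so had to differ, and no p-value is given for it. Its level was at least 2.76-fold lower in control tumors than in control normal tissue. The bound sets the mean of the control normals against the dimmest signal that counted as well above background on each tumor array. The third Gfap probe, at chr11:102752726-102752785, did not rise well above background on a single array.

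**Figure D2:**
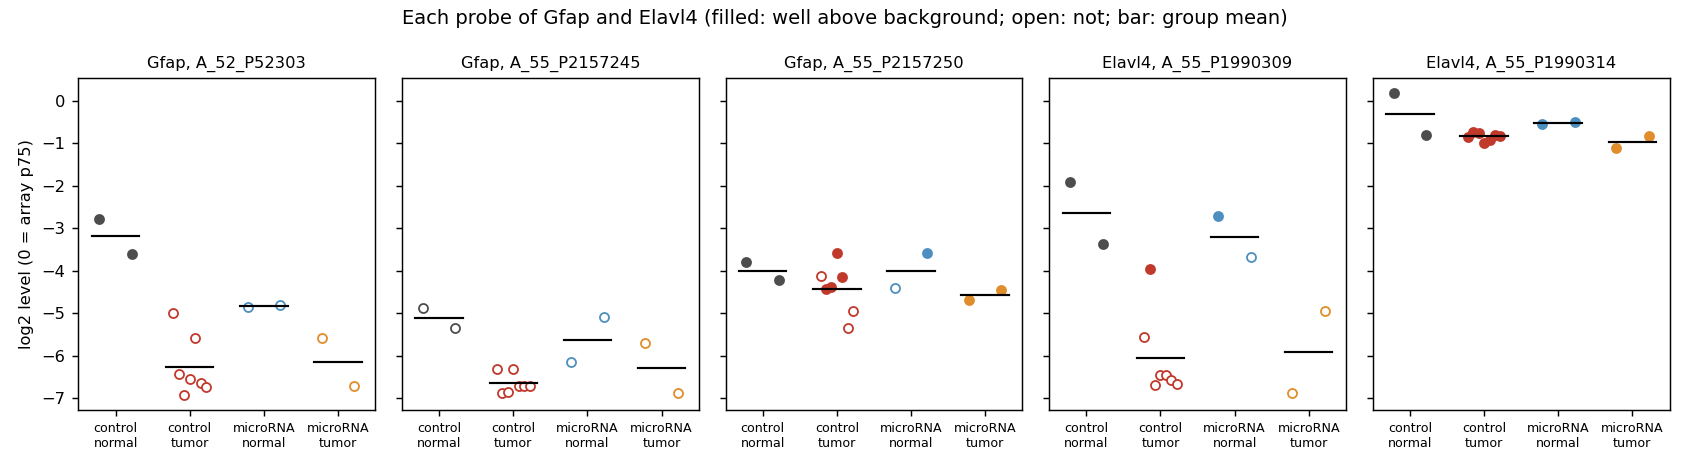
Log2 level (0 = the array's p75) of each probe of Gfap and Elavl4 on the 13 arrays; filled points are well above background, open points are not, and bars are group means. The brightest Elavl4 probe varies by little between tumors, while its dim partner is well above background on 4 arrays only.

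Of the neuronal genes, Uchl1 encodes a ubiquitin hydrolase that is abundant in neuron cell bodies and is known as the marker PGP9.5. Its log2 level was -1.10 and -2.09 in control normal tissue, and -2.80 and -1.99 in normal tissue of microRNA mice. It was -4.38 and -3.61 in microRNA tumors and ran from -6.19 through -4.46 to -2.62 in control tumors, of which 3 of 7 were well above background. The groups met at 1 point: control tumor 2, at -2.62, was above replicate 1 of the microRNA normals, at -2.80. Uchl1 fell 5.09-fold (log2 difference -2.35, SE 0.54, adjusted p = 0.00812).

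Elavl4 encodes HuD, an RNA-binding protein of postmitotic neurons. Its brighter probe (A_55_P1990314, chr4:109877455-109877514, mm9, minus strand) was well above background on all arrays. The level was 0.17 and -0.81 in control normal tissue, -0.54 and -0.51 in normal tissue of microRNA mice, and -1.11 and -0.84 in microRNA tumors. Control tumors ran from -0.99 through -0.82 to -0.73. The second control normal lay among the tumors, so the groups overlapped. The fall was 1.41-fold (log2 difference -0.49, SE 0.17, adjusted p = 0.0452), and it missed the threshold in 11 of 13 fits that each left out 1 array. Without control normal 1 the difference was -0.25 (adjusted p = 0.27).

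The other Elavl4 probe (A_55_P1990309, chr4:109878558-109878617) was well above background on both control normals, at -1.91 and -3.37, on 1 microRNA normal, at -2.73, and on control tumor 2, at -3.97. The remaining 8 tumors read -6.88 to -4.94. The measured difference of this dim probe was -3.14, where the brighter probe gave -0.49 (limma adjusted p = 0.0487 over all probes). Since 3 of the 4 bright arrays of the dim probe were normal tissue, it passed the filter mostly through the group where it was high. No p-value is therefore given for it. The mean of both probes gave -1.82, which rests in part on the dim probe and is also given without a p-value.

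Ret, the receptor tyrosine kinase, was well above background on all arrays (chr6:118101791-118101850, mm9, minus strand). Its log2 level was -0.49 and -1.72 in control normal tissue, -1.72 and -1.83 in normal tissue of microRNA mice, and -2.06 and -1.66 in microRNA tumors. Control tumors ran from -3.76 through -2.24 to -1.42. Only control normal 1 stood above the tumors. The difference of -0.84 (SE 0.47, adjusted p = 0.186, 95% interval -1.86 to 0.18) did not pass, and was -0.38 without that array.

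Among transmitter genes, Vip encodes the neuropeptide itself. The files place its probe at chr10:4699238-4699297 (mm9) on the minus strand, whereas RefSeq has the gene on the plus strand of GRCm38.p6. Its log2 level was 0.50 and -0.26 in control normal tissue, -0.43 and -0.11 in normal tissue of microRNA mice, and -1.11 and -0.98 in microRNA tumors. In control tumors it ran from -6.86 through -2.47 to -0.88, and control tumors 6 and 7 were not well above background. Every tumor lay below every normal array. The difference of -2.27 (SE 0.98, 95% interval -4.40 to -0.15) nevertheless missed the threshold (adjusted p = 0.0931), with an SD of 2.11 among the 7 control tumors against 0.54 in control normal tissue (n = 2).

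Nos1 gave dim readings, well above background on both control normals (-3.09 and -3.43), 1 microRNA normal (-3.37) and control tumor 2 (-4.07). The other microRNA normal read -4.20, the microRNA tumors -5.00 and -4.50, and the other 6 control tumors -6.69 to -4.90. Control tumor 2 was thus above the dimmest normal array. The fitted difference was -1.76 on the log2 scale (SE 0.47, adjusted p = 0.0151), set against 8 tumor readings that were not well above background, and no fold is given for it. As 3 of its 4 bright arrays were normal tissue, it too passed the filter mostly through the group where it was high. Its call is therefore not settled by this p-value.

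Slide did not turn any of these 8 directions. With the slide as a block the differences were -1.29 for Sox10, -2.39 for Uchl1, -3.10 for S100b and -1.83 for Nos1, all still past the threshold, and -0.50 for Elavl4, no longer past it (adjusted p = 0.0604). On slide 2 alone (5 arrays) they were -1.43, -2.32, -3.60, -2.66 and -0.50 in the same order, with adjusted p-values of 0.0564 for Sox10 and 0.351 for Elavl4 and under the threshold for the other 3. The remaining genes gave -0.62 for Gfap, -0.97 for Ret and -1.89 for Vip with the block, and -0.34, -1.52 and -1.77 on slide 2 alone. Slide 1 held no control normal array and gave no such value. Leaving out control normal 1 ended the calls of S100b (-2.94, adjusted p = 0.0731), Nos1 (-1.50, adjusted p = 0.077) and Elavl4, and leaving out control normal 2 ended those of S100b (-3.28, adjusted p = 0.0645) and Nos1 (-1.66, adjusted p = 0.0683). Sox10 and Uchl1 passed in each of the 13 fits, with differences of -1.39 to -1.002 and -2.58 to -1.94.

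The tumor effect was then taken within each group of mice; both of these comparisons use arrays of the one just described. In control mice 4 of the 8 genes fell, against 10.9% of all genes: Sox10 (log2 difference -1.53, SE 0.34, adjusted p = 0.0147), Uchl1 (-2.83, SE 0.68, adjusted p = 0.02), S100b (-4.56, SE 1.11, adjusted p = 0.0203) and Nos1 (-2.28, SE 0.58, adjusted p = 0.0235, with 1 of 7 control tumors well above background). Without scaling between arrays Sox10 (-0.47) and Nos1 (-1.22) no longer passed, and Gfap and Elavl4 turned to 0.62 and 0.54. The other 4 differences were -3.24 for Vip (adjusted p = 0.0802), -1.32 for Ret (0.122), -0.52 for Elavl4 (0.12) and -0.43 for Gfap (0.442). Tumors lay below normal tissue without overlap for 5 genes, the 4 that fell and Vip, against 18.9% of all genes. With the slide as a block, Uchl1 (-3.21, adjusted p = 0.0505) and S100b (-4.40, adjusted p = 0.0825) no longer passed. On slide 2 alone the comparison rests on a single control tumor and is given as values without a test: the differences were -1.73 for Sox10, -2.87 for Uchl1, -4.67 for S100b, -3.43 for Nos1 and -2.59 for Vip. That tumor was not well above background for Nos1. The limit of the filter given above holds for the Nos1 call in control mice too.

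These 4 calls rest on the 2 control normal arrays. Without control normal 1 none of the 8 genes passed, and Sox10 was -1.14 (adjusted p = 0.168), Uchl1 -2.34 (0.177), S100b -4.21 (0.155) and Nos1 -2.10 (0.166). Without control normal 2, Sox10 stayed called (-1.91, adjusted p = 0.047) and Elavl4 passed (-1.01, adjusted p = 0.0444), while Uchl1 (-3.32), S100b (-4.92) and Nos1 (-2.45) did not.

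In microRNA mice, 2 tumor arrays against 2 normal arrays, none of the 8 genes passed, where 1.76% of all genes fell. By its brightest probe, none had an unadjusted p under 0.05. The differences were -0.88 for Sox10, -1.60 for Uchl1, -1.84 for S100b, -0.58 for Gfap, -0.09 for Ret, -0.45 for Elavl4 and -0.78 for Vip. All 8 were below 0, and Sox10, Gfap, Ret, Elavl4 and Vip were above 0 without scaling. Nos1 was not well above background on either tumor array but was on 1 of the 2 normal arrays. Its measured means were -4.75 and -3.79 (adjusted p = 0.452), from which no fold is drawn. The dim Elavl4 probe A_55_P1990309 was also well above background on 1 normal array and neither tumor array. Its measured means were -5.91 in tumors and -3.20 in normal tissue, again without a fold. Both tumors lay below both normal arrays for 7 genes, all but Ret, against 33.2% of all genes. The squamous and skeletal muscle sums overlapped between tumors and normal tissue on these 4 arrays: 1.49 to 2.27 in normal tissue and 1.75 to 4.87 in tumors for squamous genes, and 3.38 to 3.58 and 3.09 to 3.98 for skeletal muscle. Their mean log2 levels did not overlap. Skeletal muscle genes read -2.12 and -2.04 in normal tissue and lower, -3.04 and -2.51, in tumors. Squamous genes read -4.10 and -3.88 in normal tissue and higher, -3.51 and -3.42, in tumors. The part of both lists in these values was not tested.

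**Figure D3:**
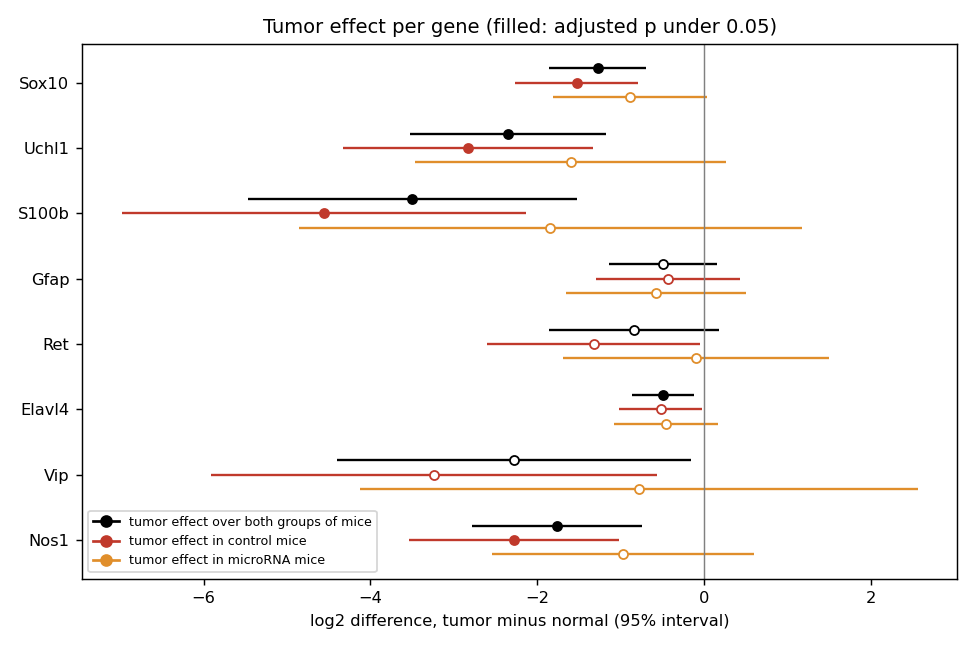
Log2 difference, tumor minus normal tissue, of the 8 genes over both groups of mice, in control mice and in microRNA mice; lines are 95% intervals from limma and filled points have an adjusted p under 0.05. The 5 filled values over both groups and the 4 in control mice all lie below 0, and no value in microRNA mice is filled.

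The difference between the 2 tumor effects was tested directly. By its brightest probe, none of the 8 genes passed or had an unadjusted p under 0.05, where 0.28% of all genes passed. The dim Gfap probe A_52_P52303 measured 1.77, but it was well above background on the control normals only, so no p-value is given for it. By the brightest probes, the difference was 2.72 for S100b (95% interval -1.15 to 6.59), 2.46 for Vip (-1.83 to 6.74), 1.31 for Nos1 (-0.71 to 3.32), 1.23 for Uchl1 (-1.16 to 3.63) and 1.23 for Ret (-0.81 to 3.28). For Sox10, Elavl4 and Gfap it was 0.65, 0.07 and -0.15. Adjusted p-values ran from 0.814 to 0.971. With these few arrays the intervals printed here allow both no difference and one of several fold. For Elavl4 the 95% interval was narrower, at -0.73 to 0.87.

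The treatment comparisons also called none of the 8 genes. In normal tissue, where 0.532% of all genes passed, microRNA minus control ran from -1.32 for S100b (95% interval -4.34 to 1.70) to 0.00 for Gfap. In tumors, where 0.00394% passed, it was 2.07 for Vip (-0.61 to 4.75), 1.40 for S100b (-1.02 to 3.83) and 0.57 for Ret, and between -0.15 and 0.78 for the others. By its brightest probe, none of the 8 had an unadjusted p under 0.05 in either comparison. In normal tissue the dim Gfap probe A_52_P52303 had measured means of -4.84 in microRNA mice and -3.19 in controls. It was well above background in the controls only. Both microRNA tumors lay within the range of the 7 control tumors for Vip: -1.11 and -0.98, where control tumor 2 read -0.88. By group mean, 6 of the 8 genes had the same order: control normal, microRNA normal, microRNA tumor, control tumor. Elavl4 and Gfap had the tumor groups the other way round. In normal tissue both microRNA arrays lay below both control arrays for 3 genes, Sox10, S100b and, narrowly, Ret, against 18.2% of all genes, and in tumors the treatments overlapped for all 8.

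Other genes of the same cells, in lists set by cell type with earlier results of these data known, were read in the same fit, and those named have the smallest p-values of their list. Of other glial genes, 4 of 8 tested fell and none rose (median log2 difference -1.37). They were Erbb3, a neuregulin receptor of the lineage (-1.21), Foxd3, a neural crest factor (-2.66), Gpr37l1, a glial receptor (-1.54), and Entpd2, an enzyme that splits extracellular ATP (-1.60). Cdh19, Sox2 and Col28a1 were too dim to test. Of other neuronal genes, 12 of 17 fell (median -1.86), among them Prph, an intermediate filament protein of peripheral neurons (-2.88), Tubb3, a neuronal tubulin (-1.86), and Nefm, a neurofilament protein (-1.51). Elavl2, the RNA-binding relative of Elavl4, went the other way and rose by 1.51. Foxd3 and Elavl2 were well above background on 4 arrays only, and Nefm on 2, the fewest that the filter allows. The sizes of these differences and the Nefm call are not settled.

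Transmitter genes of neurons fell in 8 of 15 cases and rose in none (median -1.54). The named ones were Calb2, calretinin (log2 difference -2.78), Nmu, the neuropeptide neuromedin U (-3.88), Gal, galanin (-1.45), and Slc5a7, the choline transporter (-2.67). In control mice 3 of 8 glial, 10 of 17 neuronal and 7 of 15 transmitter genes fell, with medians of -1.55, -2.20 and -2.09. In microRNA mice none of these genes passed, and the medians were -1.09, -1.19 and -1.13. Over both groups of mice the background share of genes that fell was 19.7%, as given above.

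Of 7 tested genes of the Ret and endothelin pathway 1 rose and 1 fell, where 11.7% and 19.7% of all genes did. Artn, a ligand that acts through Gfra3 and Ret, rose by 0.98 (SE 0.28, adjusted p = 0.0194), and Gfra4, a co-receptor, fell by 1.31 (SE 0.41, adjusted p = 0.0309). The other 5 did not pass, with Gfra3 at -1.47 (adjusted p = 0.0914) and Nrtn, the ligand neurturin, at -0.41 (adjusted p = 0.187). Pspn, Gfra1 and Edn3 were too dim to test. The median of the 7 was -0.50.

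Of 10 tested receptors and effectors of VIP and nitric oxide 2 fell and 1 rose, shares near those of all genes (19.7% and 11.7%). Vipr1, a VIP receptor also found in epithelium, fell by 1.09 (SE 0.37, adjusted p = 0.0408), and Prkg1, the kinase activated by cyclic GMP, fell by 1.07 (SE 0.35, adjusted p = 0.0355). Nos3, the endothelial nitric oxide synthase, rose by 0.85 (SE 0.17, adjusted p = 0.0048), opposite to Nos1. Gucy1a3, a subunit of the nitric oxide receptor, was at -1.29 and did not pass (adjusted p = 0.0614). The median of the 10 was -0.32.

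**Figure D4:**
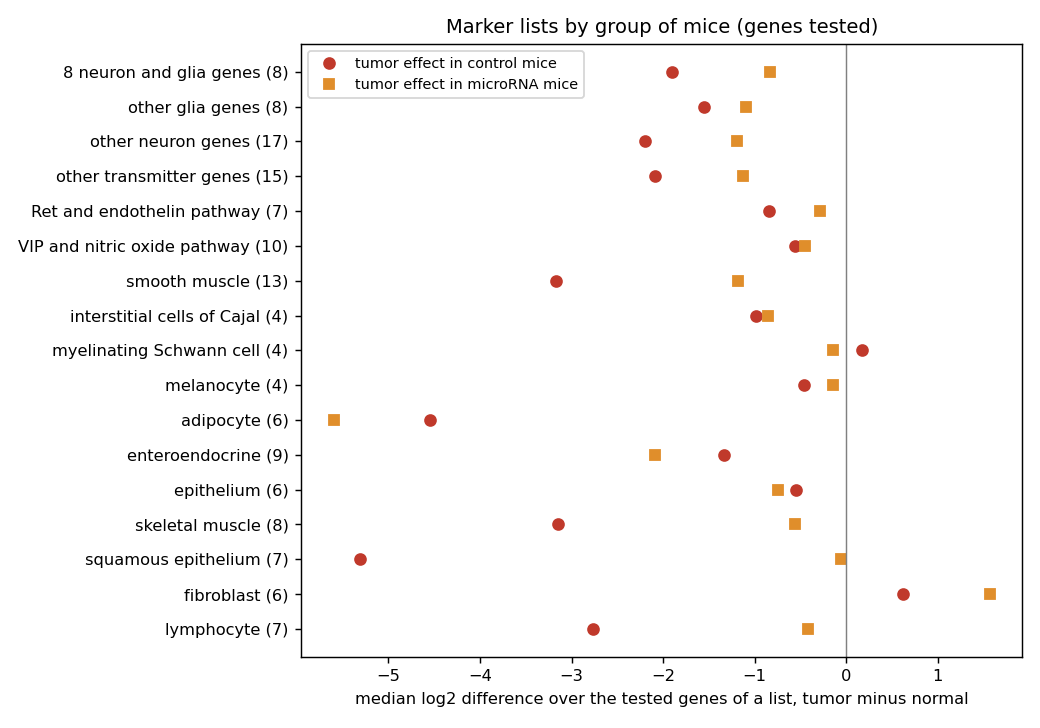
Median log2 difference, tumor minus normal tissue, over the tested genes of each list (their number in brackets), in control mice (circles) and microRNA mice (squares). The 8 neuron and glia genes had medians of -1.90 and -0.83, beside -3.18 and -1.18 for 13 smooth muscle genes and -4.55 and -5.60 for 6 adipocyte genes.

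Genes of some other cell types of the bowel wall fell as well. Over both groups of mice 19.7% of all genes fell and 11.7% rose, the shares against which these counts stand. Of 13 smooth muscle genes 12 fell (median -2.25), among them Mylk, myosin light chain kinase (log2 difference -2.25), and Actg2, enteric actin (-2.67). Their summed level was 769 to 1071 times the 75th percentile in control normals, 439 to 477 times in microRNA normals, 227 to 243 times in microRNA tumors and 43.8 to 264 times in control tumors. This is the same order of groups as for 6 of the 8 members. Kit and Etv1, both found in interstitial cells of Cajal, the pacemaker cells, fell (-1.09 and -1.36). The 2 further genes of that list did not pass: Prkcq was at -0.51 (limma adjusted p = 0.376) and Ano1 at -0.006 (0.993). The list thus gave no common direction for these cells. In microRNA mice, where 1.76% of all genes fell, none of the 13 smooth muscle and 4 Cajal cell genes passed and 4 of 6 adipocyte genes fell. Over both groups all 6 adipocyte genes tested fell (median -4.96), with Adipoq, adiponectin, at -6.16 but well above background on 5 arrays only. The summed level of the adipocyte genes was 27.3 to 49.9 times the 75th percentile in normal tissue and 1.46 to 7.69 times in tumors. The part of muscle, fat and other layers of the bowel wall in the results for the neuron and glia genes was not tested.

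Lists of cells that share some of the 8 genes were read too. Enteroendocrine cells share neuronal proteins: 5 of 9 of their genes fell (median -1.63), among them Sst, somatostatin (-3.29), and Sct, secretin (-4.63). Myelinating Schwann cells and melanocytes can express Sox10 or S100b. Among their defining genes, Pmp2 of the former and Tyrp1 and Mlana of the latter were too dim to test, while Mbp and Tyr fell (-0.66 and -0.66), each the only gene of 4 tested that passed. Medians were 0.05 for the Schwann cell list and -0.34 for the melanocyte list. Summed levels were 9.99 to 14.1 times the 75th percentile in normal tissue and 5.50 to 10.3 times in tumors for Schwann cell genes, and 0.83 to 1.296 and 0.78 to 1.02 times for melanocyte genes.

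Fibroblast genes ran the other way, with 3 of 6 up and none down (median 0.97), among them Col1a1 (2.29). Epithelial genes fell in 3 of 6 cases (median -0.70), with Krt8 at -0.82, and their summed level was 351 to 1142 times the 75th percentile over all arrays. Of 7 lymphocyte genes 5 fell (median -2.18), of 8 skeletal muscle genes 7 (median -2.17) and of 7 squamous genes 5 (median -3.23). These 3 lists were high in control normal tissue, as given above. In microRNA mice none of their genes fell, and 1 squamous gene, Krt14, rose (3.46; named after its value was seen).

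Across the 13 arrays, S100b followed the mean log2 level of the 13 smooth muscle genes most closely (r = 0.97), then Sox10 (0.90), Uchl1 (0.88), Vip (0.88) and Nos1 (0.82). Elavl4 (0.61), Ret (0.59) and Gfap (0.52) followed it less. Over the 9 tumors alone the values were 0.94 for S100b, 0.85 for Vip, 0.70 for Sox10, 0.64 for Uchl1, 0.55 for Nos1, 0.33 for Ret, 0.31 for Gfap and -0.01 for Elavl4. Other lists were followed too. Over the 9 tumors Sox10 had r = 0.94 with other glial genes, 0.86 with other neuronal genes and 0.84 with enteroendocrine genes. Vip had 0.86 with enteroendocrine genes, and S100b had 0.86 with these and 0.83 with epithelial genes. With adipocyte genes Sox10 had 0.61, S100b 0.59 and Vip 0.39. All these are descriptions without a test: the points share tissue, treatment and slide. Control tumors 1 and 2 had the most smooth muscle signal of the 7 control tumors (mean log2 levels of 1.84 and 2.22) and the highest S100b (-1.49 and -1.84). Control tumors 6 and 7 had the least (-0.34 and -0.01) and the lowest S100b and Vip.

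**Figure D5:**
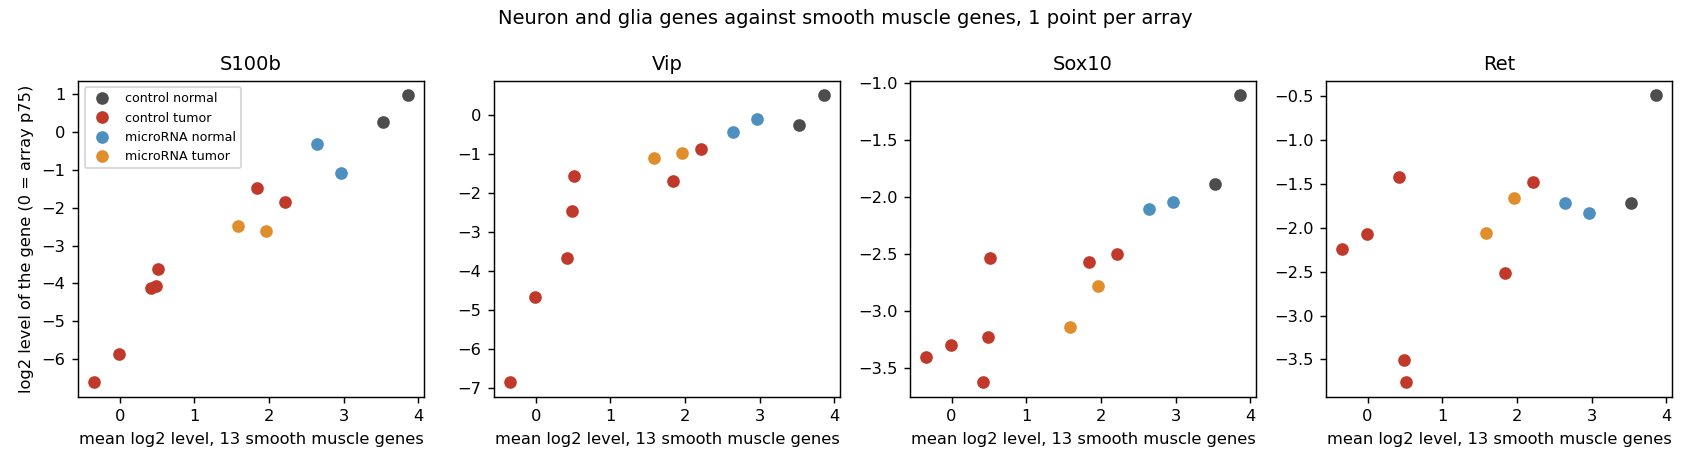
Log2 level (0 = the array's p75) of S100b, Vip, Sox10 and Ret against the mean log2 level of 13 smooth muscle genes, 1 point per array, coloured by group. S100b rises with the muscle genes over the whole range, also among tumors (r = 0.94 over 9), while Ret does so less (r = 0.33 over 9).

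Among themselves the 8 genes fell into pairs that varied together and others that did not. S100b and Vip had r = 0.92 over 13 arrays and 0.92 over 9 tumors. Sox10 and Uchl1 had 0.91 and 0.70, and Sox10 and S100b had 0.88 and 0.71. Ret shared little with the glial genes among tumors, with r = -0.22 against Sox10 and 0.11 against S100b. Gfap against Uchl1 gave 0.24 over all arrays and -0.37 over tumors.

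Over all named genes, those with the pattern most like each member were found by r over the 13 arrays. For Sox10 they were Pln (r = 0.97), Ndn (0.97) and Nmu (0.96), and for S100b Stmn2, Psd and Pgm5 (each 0.98). Uchl1 was nearest to Pcp4l1, Enpp2 and Scrn1 (each 0.95) and Nos1 to Cadm3 (0.95), Slc5a8 (0.93) and Ctcfl (0.93). Vip was nearest to Cacna1s, Kcnn3 and Scn7a (each 0.96). Among tumors alone these 15 genes kept r of at least 0.83. Ret was nearest to Cnnm2 (0.90), Foxp1 (0.89) and Slc6a8 (0.87), and Gfap to Foxo4, Slc16a1 and B4galt7 (each 0.87). For Elavl4 the nearest gene, Cyp3a11, had r = 0.90 over all arrays and -0.03 among tumors.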

How the data were processed

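The 13 arrays were used as deposited. Per the file headers, the authors used Feature Extraction 10.7.3.1 on the scans, with probe coordinates on mm9. Per the labels, 35 ng of total RNA was labelled with Cy3. The deposited processed signal is a linear intensity that had local background removed and no scaling between arrays, and the deposited table of the series held the same values (largest relative difference 0).

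Without the 3671 control spots there were 59305 spots of 55681 probes. Spots with a non-uniformity or population outlier mark were dropped, after which 85 probes had gaps. The log2 of the 75th percentile was subtracted on each array. Probes well above background on at least 2 of 13 arrays were kept (35191), and a gene was represented by its brightest probe, giving 25395 genes, of which 14947 had a RefSeq symbol. None of the 11 probes was saturated. Coordinates, strands and gene names are those of the files; sequences of promoters are RefSeq's on GRCm38.p6, found for 6 of the 8 genes (not for Sox10 and Ret).

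limma 3.58.1 (lmFit, eBayes) in R 4.3.3 was fitted on all 13 arrays: tissue plus treatment for the tumor effect across all mice, and 4 group means for the other 5 comparisons. Genes with a Benjamini-Hochberg adjusted p under 0.05 over all genes were called. Simulated data with known changes served to test the fit. Also used were data.table (version 1.17.8), pandas 2.3.3, Python 3.11.15 and matplotlib 3.10.9.

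The 8 genes and the 17 gene lists were chosen with earlier results of these data known. All 8 genes are described with every probe; from each list up to 4 genes with the smallest p in the first comparison are named; for likeness, the 3 genes with an official symbol and the highest r over 13 arrays. Alternatives were median scaling, quantile normalization, no scaling, normexp background correction with an offset of 50 (on deposited mean and background intensity), 3 choices of filter and probe, the compared groups alone, trend and robust eBayes, a slide block, the slides taken singly, a replicate block, the number in the array name as a random block, and each array left out. The number of arrays limits the precision.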

Additional observations from a re-analysis of the deposited data

How the results depend on the processing

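The counts of the 8 genes called were 5 over both groups of mice, 4 in control mice and 0 in the other 4 comparisons, all lower in tumors. With no scaling between arrays they were 2 and 2 (Uchl1 and S100b in each), and with normexp 8, 8 and, in microRNA mice, 1 (Nos1), where the share of all genes that fell also rose, to 38.0%, 26.3% and 7.90%. The slide as a block gave 2 in control mice, and slide 2 alone gave 3 over both groups. Leaving out 1 array gave 2 to 5 over both groups of mice and 0 to 4 in control mice, with 2 and 0 without control normal 1, and 3 and 2 without control normal 2. The other 4 comparisons called none in any of these 13 fits. Replicate numbers are not tied to animals. Same-numbered normal and tumor arrays had correlations of their deviations from the group means of 0.42 in microRNA mice, and of -0.14 and -0.09 in control mice. With 2 arrays in each microRNA group, both microRNA pairs must give the same value. The arrays of each microRNA pair also shared a slide, so the value cannot tell animal from slide. With a replicate block, in which control tumors 3 to 7 have no partner, the counts were 3 (Sox10, Uchl1 and S100b), 1 (S100b) and 1 (S100b in microRNA mice). Single values that turned their sign were all of results that did not pass, except Elavl4 over both groups of mice without scaling (0.50).
Without scaling, over both groups of mice Gfap was 0.51 and Ret 0.16. In control mice Gfap was 0.62 and Elavl4 0.54. In microRNA mice Sox10 was 0.021, Gfap 0.33, Ret 0.81, Elavl4 0.45 and Vip 0.13. The difference of tumor effects was -0.085 for Elavl4, and the microRNA effect was -0.013 for Gfap in normal tissue and -0.10 for Sox10 in tumors. Ret in microRNA mice was 0.13 with median scaling and 0.17 on slide 1 alone. The difference of tumor effects for Gfap was 0.033 with median scaling, 0.11 with quantile normalization, 0.81 with the mean of probes, 0.081 with the slide block and 0.10 on slide 2 alone. The microRNA effect on Gfap in normal tissue was -0.11, -0.20, -0.82, -0.13 and -0.42 in the same order. Elavl4's difference was -0.13 on slide 2 alone and -0.008 with the array-name number as a random block, and its microRNA effect in tumors was 0.006 with the mean of probes and 0.015 on slide 1 alone. With the replicate block, the microRNA effect in tumors was -0.42 for Sox10, -0.70 for Uchl1 and -0.88 for S100b. Leaving out 1 array gave ranges that cross 0 for Gfap's difference (-0.56 to 0.27) and microRNA effect in normal tissue (-0.42 to 0.42), for Elavl4's difference (-0.42 to 0.56) and microRNA effects in normal tissue (-0.69 to 0.29) and in tumors (-0.27 to 0.002), for Ret in microRNA mice (-0.29 to 0.11) and for the microRNA effect on Sox10 in tumors (-0.12 to 0.24). The cause of these changes was not tested. Nos1, the dim probes of Gfap and Elavl4, and S100b, Vip and Uchl1 in some tumors lay near background, which limits their values.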
